A study of Mus musculus with 30 samples.

Results

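The subject is a set of 34 genes of the salivary gland secretory programme: the mucins, antimicrobial proteins and enzymes that make up saliva, the channels that move its water and salt, and the transcription factors and structural proteins of the gland cells. The members were taken by symbol from a list that was drawn up with results of these same samples known, including how such genes covary between samples of a stage. Their levels and covariation are therefore described here, without a test of the covariation, and the stage comparisons below are not independent of that choice. All 34 had 1 row each among the 55487 listed genes, and all 34 were among the 17638 genes with enough counts to be tested.

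The RNA came from 30 samples of a mouse model of oral cancer driven by 4NQO (4-nitroquinoline-1-oxide), which forms DNA adducts and is given in the drinking water. All samples carry the same labels: male C57BL/6J mice, 4NQO at 100 ug/mL for 10 weeks starting at 6 weeks of age, and oral squamous cell carcinoma as the tissue. The labels give this protocol for the normal samples too and do not say whether those mice drank the carcinogen. Pathological stage divided the samples into 6 invasive carcinomas, 6 carcinomas in situ, 7 dysplasias, 8 hyperplasias and 3 normal tissues. Values are CPM, gene counts divided by the TMM-scaled library size and expressed per 1e6, and totals ran from 17725604 to 28023098 counts. The labels do not say that samples came from separate animals, so p-values reflect only sample-to-sample spread, which may be technical. The letter of a sample's code follows its stage (normal D, hyperplasia A, dysplasia B), and C covers carcinoma in situ as well as invasive carcinoma. Anything else that followed these letters cannot be told apart from stage, except within C.

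Salivary glands secrete through acini, small clusters of cells that are serous, with watery, enzyme-rich granules, or mucous, with granules of mucin. Small glands of both kinds lie beneath the oral mucosa and between the muscle fibres of the tongue, where serous von Ebner glands drain at the taste papillae and release lingual lipase. Fluid secretion begins with chloride taken up at the basal side by the cotransporter Slc12a2 and released at the apical side by the channel Ano1, and water follows through the aquaporin Aqp5.

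The starts of 28 of the 34 genes were found in the RefSeq promoter table (build GRCm38.p6). The 250 bases before the start are shown for 5 members. Lipf and Bpifb2 belonged to the serous-type core and to the Muc5b group described below. Pigr followed the mean of the other members most closely, and Dcpp1 and Dcpp3 are paralogs. Capitals mark the letters ACGTG on either strand, the core that factors of the unfolded protein response bind. Lipf is at chr19:33960998-33961247 and Bpifb2 at chr2:153874795-153875044, Pigr at chr1:130826434-130826683, Dcpp1 at chr17:23880626-23880875 and Dcpp3 at chr17:23917208-23917457, all on the plus strand.
Lipf: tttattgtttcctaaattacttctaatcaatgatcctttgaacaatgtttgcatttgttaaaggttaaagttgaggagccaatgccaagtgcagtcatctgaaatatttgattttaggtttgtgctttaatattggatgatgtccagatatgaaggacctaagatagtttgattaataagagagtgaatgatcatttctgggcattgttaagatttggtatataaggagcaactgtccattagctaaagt
Bpifb2: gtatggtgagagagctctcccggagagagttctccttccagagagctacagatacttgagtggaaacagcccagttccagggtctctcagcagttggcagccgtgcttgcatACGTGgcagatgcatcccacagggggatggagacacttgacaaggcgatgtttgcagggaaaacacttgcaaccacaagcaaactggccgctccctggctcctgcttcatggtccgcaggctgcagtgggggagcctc
Pigr: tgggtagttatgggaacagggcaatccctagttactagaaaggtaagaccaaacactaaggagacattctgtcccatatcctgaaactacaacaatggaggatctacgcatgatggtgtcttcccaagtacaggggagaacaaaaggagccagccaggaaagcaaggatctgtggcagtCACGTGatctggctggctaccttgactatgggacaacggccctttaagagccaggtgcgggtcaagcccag
Dcpp1: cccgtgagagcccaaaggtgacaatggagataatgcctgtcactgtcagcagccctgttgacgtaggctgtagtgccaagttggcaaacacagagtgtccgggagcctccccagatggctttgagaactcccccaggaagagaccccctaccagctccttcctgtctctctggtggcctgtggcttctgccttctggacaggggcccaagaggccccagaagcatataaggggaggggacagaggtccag
Dcpp3: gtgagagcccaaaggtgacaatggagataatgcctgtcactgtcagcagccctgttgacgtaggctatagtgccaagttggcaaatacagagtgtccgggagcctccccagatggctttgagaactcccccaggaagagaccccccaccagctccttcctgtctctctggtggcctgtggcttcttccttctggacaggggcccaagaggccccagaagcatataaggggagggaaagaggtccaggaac
The letters ACGTG stood in 7 of the 28 windows (25.0%; Pigr, Bpifb2, Car6, Pip, Cldn10, Aqp5 and Spdef) and in 16.6% of all 32851 windows of the table. The E-box CAGCTG, of the kind bound by the acinar factor Bhlha15, stood in 2 of 28 (7.14%; Elf5 and Car6) and in 13.0% of all windows. The E-box CATATG and the ETS-type letters CCGGAAG and CCGGATG, again on both strands, stood in 0 of 28, against 3.46%, 6.91% and 1.79% of all. Over this window Dcpp1 and Dcpp3 were identical at 241 bases (96.4%), Dcpp1 and Dcpp2 at 238 (95.2%) and Dcpp2 and Dcpp3 at 243 (97.2%).

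The transcripts of the Dcpp genes shared long stretches too. Of all runs of 50 bases in the annotated transcripts, 46.5% of those of Dcpp1, 44.2% of Dcpp2 and 45.8% of Dcpp3 were also in another Dcpp gene. Sbpl, a spermine-binding protein-like gene near them on chromosome 17 (23953084 to 23955274, minus strand), shared 38.9% with Sbp, Amy1 33.3% with Rnpc3 and the pancreatic amylase genes, and Krt8 26.9% with the pseudogene Krt8-ps. The division of reads among these genes is uncertain. The annotated span of Dcpp2 (chromosome 17, 23880880 to 23900788) also covers Dcpp1, and Muc19 overlaps Smgc (chromosome 15, 91838265 to 91861438) on the same strand. The counter and its strand setting are not given in the sources used here.

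The secreted members were present at very different levels in samples of the same stage. The 22 members that encode secreted products summed to 44505 CPM in normal sample D01, 4.45% of its library, and to 79.7 and 67.0 CPM in D02 and D03. In hyperplasia the sum ran from 84.3 (A02) through a median of 2592 to 60090.3 CPM (A08). Dysplasia ran from 30.8 (B06) through 17070 to 60873 CPM (B01), which was 6.09% of that library. Carcinoma in situ ran from 59.4 (C11) through 12371 to 33383 CPM (C07), and invasive carcinoma from 87.3 (C08) through 10060 to 58344 CPM (C12). Every stage thus held samples near the bottom and near the top of the range, and the groups overlapped almost completely. The sum exceeded 1000 CPM in 1 of 3 normal, 4 of 8 hyperplasia, 6 of 7 dysplasia, 5 of 6 carcinoma in situ and 4 of 6 invasive carcinoma samples. In bulk samples, fewer gland cells and less RNA per gland cell cannot be told apart. The TMM factors lay between 0.892 and 1.057 in all 30 samples.

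**Figure D1:**
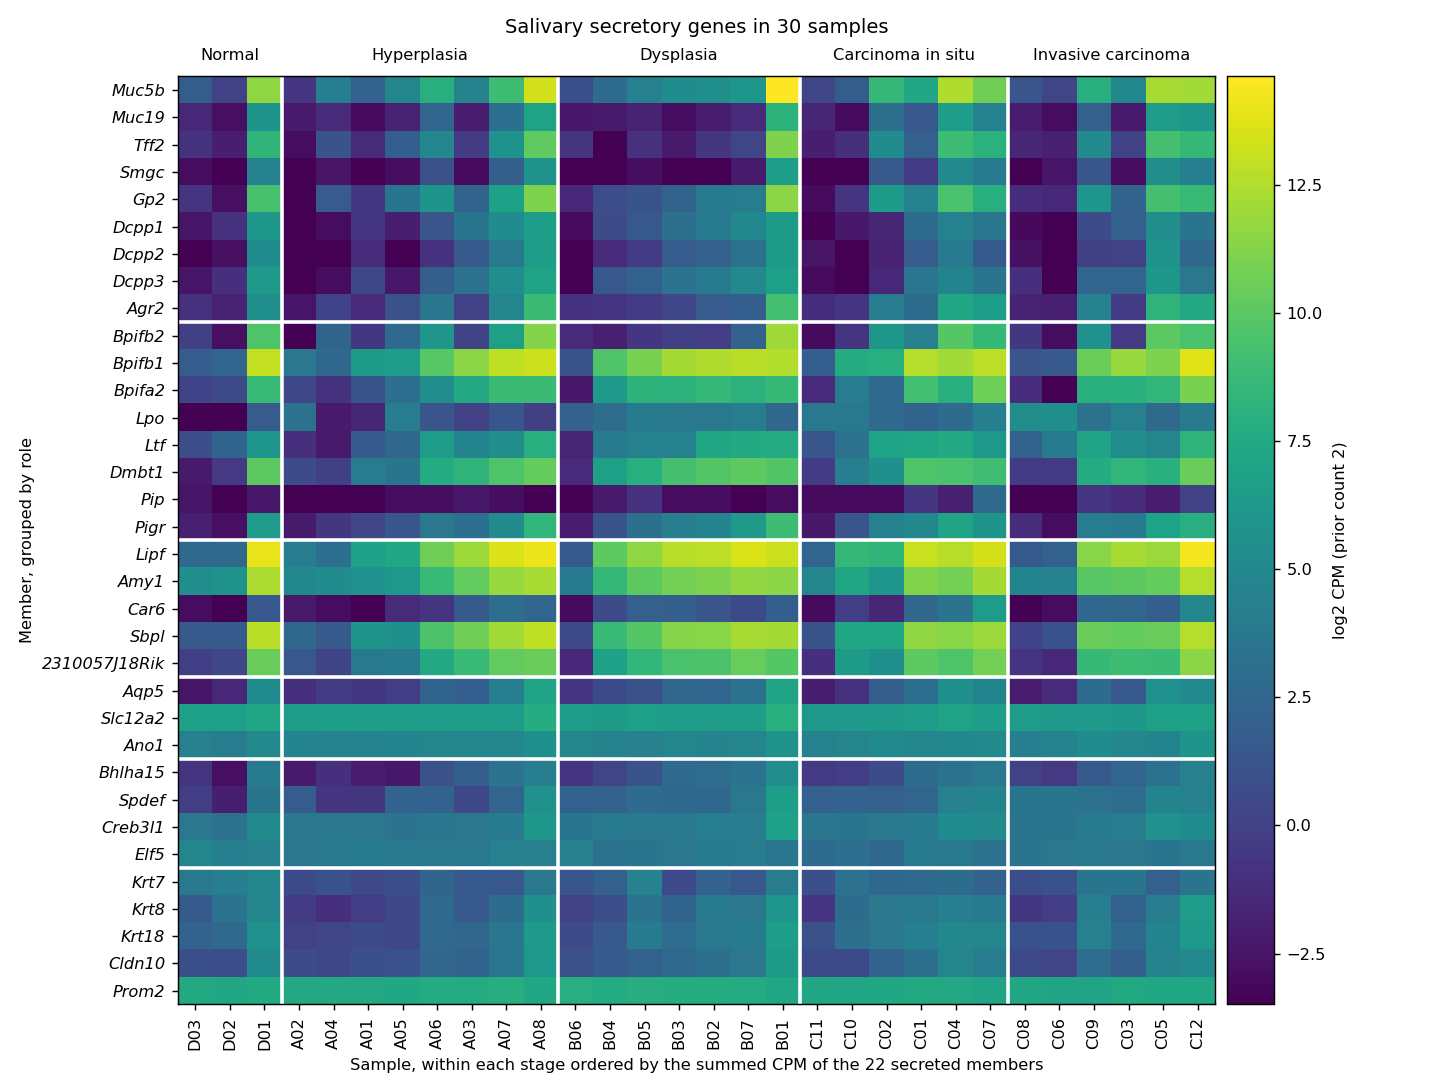
Log2 CPM (prior count 2, colour) of the 34 members (rows, grouped by role) in the 30 samples (columns, grouped by stage and ordered within a stage by the summed CPM of the 22 secreted members). Each stage runs from samples with almost no secretory RNA, such as D02, A02, B06, C11 and C08, to samples rich in it. Rich samples include D01, A08, B01, C07 and C12. Prom2, Elf5, Slc12a2 and Ano1 keep nearly 1 colour throughout.

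Per kilobase of exon, the scale on which genes can be set beside each other, the lipase Lipf had the highest median over the 30 samples, 2080 CPM per kb, followed by Sbpl at 1250, the antibacterial-fold protein Bpifb1 at 481, Amy1 at 300.4 and 2310057J18Rik at 204. Within a sample, Lipf was above Sbpl and Sbpl above Bpifb1 in 30 of 30 samples, while Bpifb1 was above Amy1 in 22 and Amy1 above 2310057J18Rik in 28. Lowest were Muc19 at 0.028, Smgc at 0.021 and Pip at 0.020 CPM per kb. In the samples where each gene was highest the order was Lipf at 14107, Sbpl at 8460, the trefoil peptide Tff2 at 3733 and Bpifb1 at 3707 CPM per kb. Lipf alone made up 31.6% of all secreted-member CPM, Bpifb1 19.8%, Sbpl 12.1%, the gel-forming mucin Muc5b 12.02% and Amy1, salivary amylase, 9.65%.

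The within-stage spread of the members was wide beside that of other genes. The SD between samples of a stage had a median of 3.32 log2 units over the members, against 0.24 over all 17638 genes, whose 95th percentile was 0.74. It exceeded that percentile in 30 of the 34 members and was largest in Bpifb2 (5.16), Muc5b (4.79), Tff2 (4.76) and Gp2 (4.75). The exceptions were Slc12a2 (0.39), Ano1 (0.41), Elf5 (0.34) and Prom2 (0.17). None of these 4 fell below 5 CPM in any sample, those with little secretory RNA included. The share of the sum of squares between stages had a median of 6.78% in the members and 36.4% in all genes. Such a share lies above 0 from sampling alone, even where stage has no effect. The largest shares among members were 61.4% in Lpo, 53.2% in Elf5, 46.1% in Prom2, 33.97% in Krt7, 31.6% in Spdef and 22.4% in Pip.

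**Figure D2:**
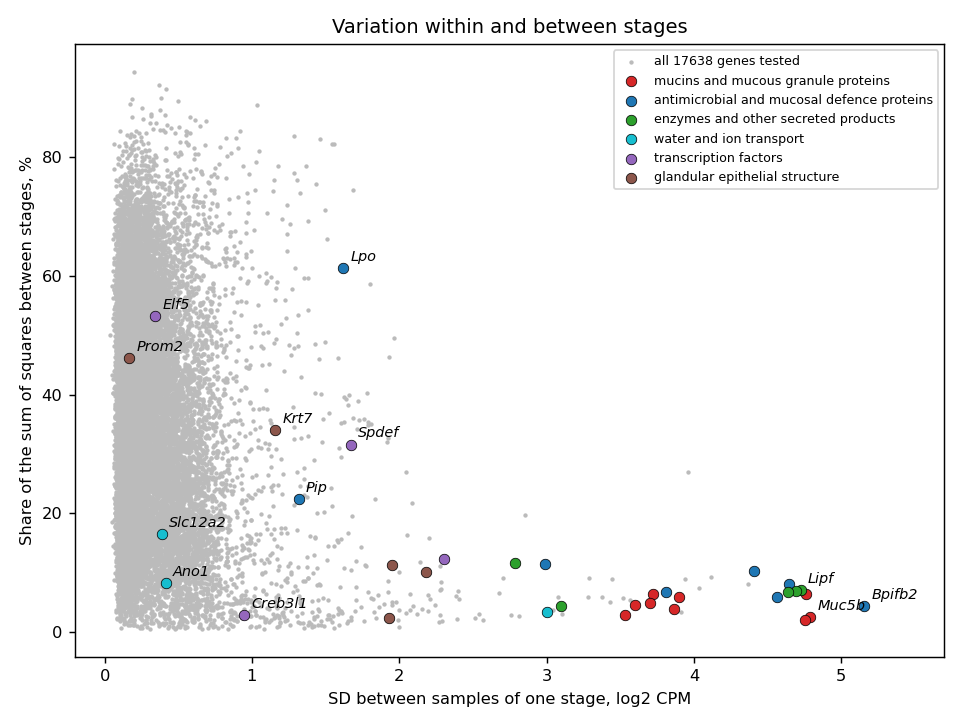
SD between samples of 1 stage in log2 CPM (x axis) against the percentage of the sum of squares that lies between stages (y axis), for all 17638 genes (grey) and the 34 members (coloured by role). Most members sit far to the right and near the bottom, with SDs of about 2 to 5 and stage shares under 15% in 27 of them. Lpo, Elf5, Prom2, Krt7, Spdef and Pip stand higher.

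After centring on the stage mean, most members moved together over the 30 samples. Of 561 pairs, 531 had a positive Pearson correlation of log2 CPM, with a median of 0.77. The median over pairs was 0.80 within the 8 hyperplasia samples, 0.68 within the 7 dysplasia samples, 0.79 within carcinoma in situ and 0.82 within invasive carcinoma, with 6 samples each. With the mean of the other 33 members, the correlation was highest for Pigr (0.99), Aqp5 (0.98) and the claudin Cldn10 (0.97), over 0.8 in 26 members, and under 0.5 in 4: Pip (0.48), Elf5 (0.29), Lpo (0.05) and Prom2 (-0.01). These values describe points that share libraries and RNA composition, and the members were proposed with the pattern in view.

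Inside this common pattern, average linkage, stopped at a mean correlation of 0.85, joined Muc5b, Muc19, Tff2, Smgc, Gp2, Agr2 and Bpifb2 in a group of 7. A group of 17 held Lipf, Bpifb1, Bpifa2, Dmbt1, Sbpl, Amy1, Car6, 2310057J18Rik, Dcpp1 to Dcpp3, Pigr, Aqp5, Bhlha15, Krt8, Krt18 and Cldn10. The groups were not sharply parted: 7 of these 17 correlated more with Muc5b than with Lipf, among them Aqp5 (0.97 against 0.86), Cldn10 (0.96 against 0.84) and Pigr (0.95 against 0.93). Slc12a2 and Creb3l1 formed a pair, and the remaining 8 members stood alone. Among the 7 genes of the Muc5b group the correlations were 0.93 to 0.99. Among Lipf, Bpifb1, Sbpl, Amy1, Dmbt1, 2310057J18Rik and Bpifa2, taken after their values were seen as the serous-type core, they were 0.964 to 0.999. Between these sets they were 0.63 to 0.82, with a median of 0.71.

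**Figure D3:**
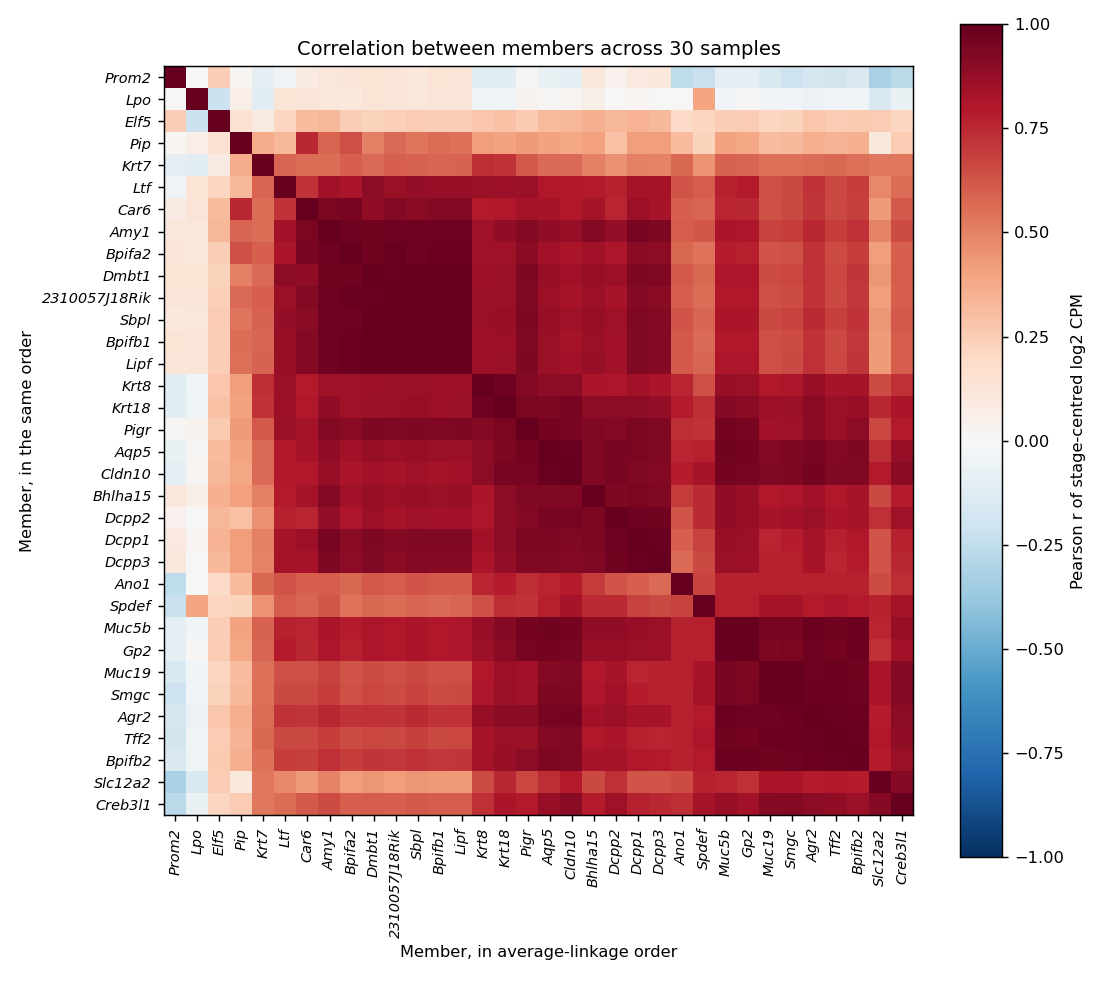
Pearson correlation (colour, -1 to 1) of stage-centred log2 CPM between each pair of the 34 members over 30 samples, in average-linkage order. The dark blocks are the Lipf set (0.964 to 0.999 among its 7 core genes) and the Muc5b set (0.93 to 0.99). Prom2, Lpo and Elf5 form pale rows. Pip is paler than most members but reaches 0.75 with Car6 and 0.65 with Bpifa2.

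Lipf and Muc5b diverged in particular samples. Lipf was 164 times Muc5b in CPM in hyperplasia sample A03, 159.5 times in dysplasia sample B02, 163 times in B03, 158 times in B04, 152 times in B05 and 193 times in B07. It was 154 times Muc5b in invasive sample C03 and 105 times in carcinoma in situ sample C10. In 7 of these 8 samples the ratio stayed between 152 and 193, although Lipf itself ran from 1106 to 12344 CPM among them. In 9 other samples the ratio was under 2, and in 5 of those the secreted members summed to more than 1000 CPM: 1.60 in A08, 0.37 in B01, 0.85 in C02, 1.18 in C04 and 0.76 in C05. Dysplasia showed the contrast within 1 stage, since 5 of its 7 samples had ratios over 100 and B01, its richest in both genes' blocks together, had more Muc5b than Lipf.

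**Figure D4:**
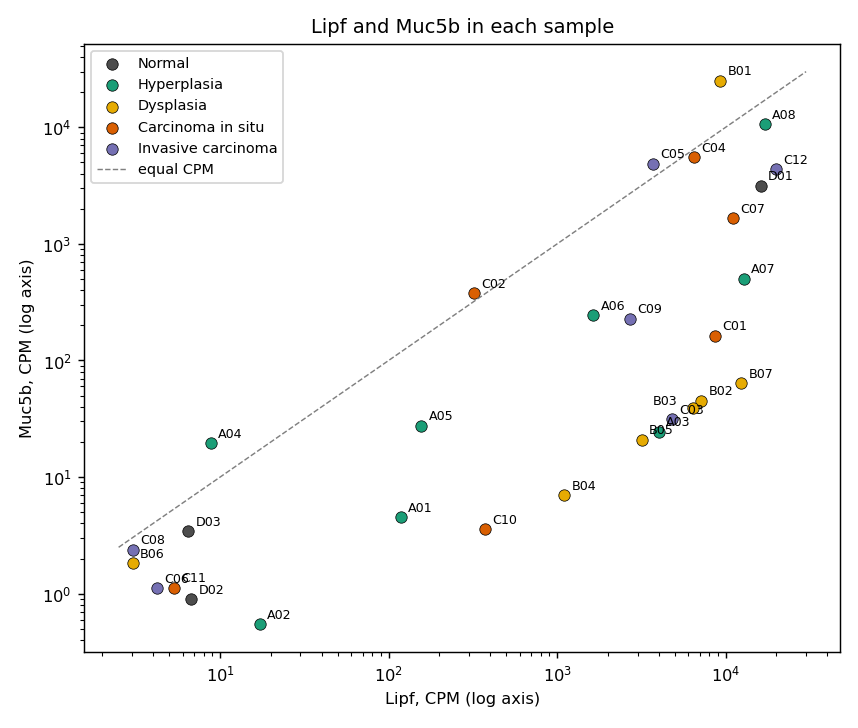
Lipf (x axis) against Muc5b (y axis), both in CPM on log axes, with 1 point per sample coloured by stage and a dashed line where they are equal. A lower band of samples (B04, B05, A03, C03, B03, B02 and B07) has Lipf at 152 to 193 times Muc5b, while B01, C05, C02 and A04 lie above the line of equality. Samples of every stage fall in the low corner or at the high end.

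Among the mucins, Muc5b was at 3146, 0.901 and 3.43 CPM in normal samples D01, D02 and D03. It ran from 0.545 through a median of 26.04 to 10616 CPM in hyperplasia and from 1.82 through 39.0 to 24993 in dysplasia. It ran from 1.13 through 271 to 5512 in carcinoma in situ and from 1.12 through 129.5 to 4851 in invasive carcinoma. A08 and B01 were far above the rest of their stages, where the next samples had 502 and 64.0 CPM, and each stage covered most of the range of the others. Muc19, a gel-forming mucin of the sublingual gland, had 58.2, 0.0563 and 0.264 CPM in the normal samples. Its lowest, median and highest values were 0.0396, 0.262 and 127 CPM in hyperplasia, 0.0446, 0.139 and 298 in dysplasia, 0.0406, 5.81 and 99.8 at the in situ stage, and 0.0447, 2.08 and 85.9 in invasive carcinoma. In dysplasia only B01 exceeded 1 CPM of Muc19, and the next sample, B07, had 0.311.

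Tff2, which is packed with mucin in mucous granules, had 320.4, 0.169 and 0.484 CPM in normal samples and reached 1174 in A08, 2180.3 in B01, 504 in C04 and 624.9 in C05. Its stage medians were 2.89, 0.513, 20.9 and 17.5 CPM from hyperplasia to invasive carcinoma. The granule membrane glycoprotein Gp2 had 638, 0.0563 and 0.528 CPM in normal samples, with medians of 8.15, 4.82, 53.7 and 34.5 CPM in the later stages and peaks of 2193 (A08), 2882 (B01), 675 (C04) and 619 (C05). The same 4 samples were thus the highest of their stages for Muc5b, Muc19, Tff2 and Gp2. Agr2, a disulfide isomerase that helps mucins fold, and Smgc peaked there too, at 597 and 98.3 CPM in B01. Dcpp1, a demilune and parotid protein, had 66.9, 0.45 and 0.0879 CPM in normal samples, medians of 1.44, 8.93, 3.76 and 2.82 CPM, and peaks of 100.4 (A08), 81.2 (B01), 21.5 (C04) and 44.7 (C05). Dcpp2 and Dcpp3 had their stage peaks in the same samples.

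None of the 9 mucous granule genes passed the test in any of the 6 comparisons, which were each later stage against normal and invasive carcinoma against hyperplasia and against carcinoma in situ. The fitted log2 change of Muc5b against normal was 0.45 ± 2.80 (SE) in hyperplasia, 1.78 ± 3.07 in dysplasia, 0.29 ± 2.89 at the in situ stage and 0.59 ± 2.93 in invasive carcinoma, with adjusted p of 0.942, 0.714, 0.949 and 0.887 (edgeR quasi-likelihood test, Benjamini-Hochberg). Errors of this size leave changes of several log2 units in either direction undetectable.

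Of the antimicrobial and defence proteins, Bpifb2 had 775, 0.0563 and 0.879 CPM in the normal samples. The lowest, median and highest values were 0, 5.72 and 2451 CPM in hyperplasia, 0.179, 0.789 and 4119 in dysplasia, 0.0417, 44.7 and 927 at the in situ stage, and 0.0447, 26.2 and 1067 in invasive carcinoma. Genes of the same family near it on chromosome 2 did not group with it: Bpifb1 and Bpifa2, the parotid secretory protein, kept to the Lipf block, with B02 at 0.789 CPM of Bpifb2 beside 5628 of Bpifb1. Dmbt1, the salivary agglutinin that binds bacteria, had 1039.7, 0.619 and 0.132 CPM in normal samples, medians of 108, 623, 292 and 227 CPM in the later stages, and peaks of 1309 (A08), 1114 (B07), 782 (C01) and 1412 (C12). Pigr, the receptor that carries IgA into saliva, had 91.9, 0.0563 and 0.176 CPM in normal samples, medians of 5.49, 18.5, 26.7 and 16.6 CPM, and peaks of 350.5 (A08), 509.7 (B01), 134 (C04) and 244 (C12). The iron-binding protein Ltf, lactoferrin, ran from 0.129 (A04) to 313 CPM (C12). None of these 6 passed in any comparison by edgeR.

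Lpo, the lactoperoxidase of saliva, was the member whose stages separated most clearly. It was at 3.14 CPM in D01 and at 0 counts in D02 and D03, which allows 3 counts in each. It ran from 0.129 through a median of 1.63 to 17.4 CPM in hyperplasia, from 4.22 through 13.4 to 18.4 in dysplasia, from 4.70 through 10.2 to 20.4 in carcinoma in situ, and from 6.79 through 18.5 to 46.7 in invasive carcinoma. All 19 dysplasia and carcinoma samples lay above every normal sample, while hyperplasia overlapped both sides. Lpo was highest in C06 and C08, at 46.7 and 44.6 CPM, the samples of invasive carcinoma with the least Lipf (4.20 and 3.02 CPM). Against normal it rose by a log2 change of 3.46 ± 1.26 in dysplasia (adjusted p = 0.0449), 3.42 ± 1.27 at the in situ stage (0.0361) and 4.56 ± 1.32 in invasive carcinoma (0.0068), and against hyperplasia it rose by 2.51 ± 0.77 in invasive carcinoma (0.0123), by the edgeR test. In hyperplasia the log2 change was 2.05 ± 1.21 (adjusted p = 0.268). The rises in dysplasia and at the in situ stage each rested on the low normal samples: without D02 the adjusted p was 0.193 and 0.142, and without D03 0.157 and 0.135. In dysplasia the call was likewise lost without B02, B03, B04, B05 or B07 (edgeR adjusted p 0.0512 to 0.0640), and in carcinoma in situ without C07 (0.0618). In both of these stages the call was also lost with no expression filter (0.0891 and 0.0728), by limma-voom (0.0707 and 0.0754), in a fit of only the groups compared (0.0522 and 0.0678) and with the replicate block (0.173 and 0.207). The rises in invasive carcinoma held without any 1 sample.

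Pip, prolactin-induced protein, was barely present. Normal samples held 2, 0 and 2 counts, and hyperplasia samples at most 3. In carcinoma in situ, C07 held 160 counts (6.65 CPM), C01 15 and the other 4 samples 1 to 4, and in invasive carcinoma the highest was C12 at 21 counts. Pip passed the test in carcinoma in situ against normal (log2 change 4.10 ± 1.63, adjusted p = 0.0476 by edgeR), and this rested on C07, without which the change was 1.31 with an adjusted p of 0.477. By limma-voom the change was 1.28 (0.422). It also missed the threshold without D01, D02 or D03 (0.0953, 0.153 and 0.115). Car6, the secreted carbonic anhydrase, peaked in the same sample at 86.0 CPM, against 11.2 in the next of its stage, and did not pass (4.23 ± 2.07, adjusted p = 0.109 by edgeR, 0.0480 by DESeq2).

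Lipf, the lipase of serous lingual glands, had 16159, 6.76 and 6.46 CPM in normal samples D01, D02 and D03. Its lowest, median and highest values were 8.80, 898 and 17016 CPM in hyperplasia, 3.04, 6361 and 12344 in dysplasia, 5.34, 3442 and 10984 at the in situ stage, and 3.02, 3199 and 19905 in invasive carcinoma. Each stage had its lowest sample under 10 CPM and its highest at 10984 CPM or more. The fitted log2 changes of Lipf against normal were -0.27 ± 2.13, 0.06 ± 2.21, -0.27 ± 2.23 and -0.05 ± 2.25 from hyperplasia to invasive carcinoma, with adjusted p of 0.940 to 0.988 by edgeR. By limma-voom, which works on log values and weights the samples, the change in dysplasia was 7.36 ± 2.85 (adjusted p = 0.0411). Amy1, Sbpl and 2310057J18Rik ran alongside, with correlations with Lipf of 0.97, 0.998 and 0.997, and the lowest value of Amy1 in any sample was 15.4 CPM. None of the 5 enzymes and other secreted products passed in any comparison by edgeR.

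Of the transport genes, Aqp5 had 39.8, 0.282 and 0.0879 CPM in the normal samples, medians of 2.23, 5.20, 6.03 and 4.96 CPM in the later stages and peaks of 134 (A08), 133 (B01), 48.4 (C04) and 51.2 (C05). Slc12a2 and Ano1 varied far less, from 68.0 to 232 and from 17.4 to 59.5 CPM over all 30 samples. Slc12a2 was still highest in A08 (209) and B01 (232), the samples richest in mucins, and its correlation with Muc19 was 0.82. Neither they nor Aqp5 passed the test in any comparison.

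Bhlha15 (Mist1), the transcription factor that sets up the granules and apical membrane of serous acinar cells, had 15.4, 0.0563 and 0.528 CPM in the normal samples, medians of 1.14, 6.47, 4.51 and 4.01 CPM and peaks of 19.0 (A08), 41.0 (B01), 13.2 (C07) and 20.5 (C12). Spdef, an ETS factor of goblet and mucous cells, had 11.6, 0.169 and 0.835 CPM in the normal samples. From lowest through median to highest, it had 0.515, 3.87 and 49.9 CPM in hyperplasia, 4.26, 6.16 and 99.5 in dysplasia, 4.05, 4.89 and 25.7 at the in situ stage, and 7.97, 11.5 and 25.8 in invasive carcinoma. All invasive samples lay above D02 and D03, but D01 lay among them, and the log2 change was 1.82 ± 1.37 (adjusted p = 0.285 by edgeR). By limma-voom, with a log2 change of 3.87, the adjusted p was 0.0188. The invasive samples C06 and C08, with Lipf at 4.20 and 3.02 CPM, had 11.6 and 11.5 CPM of Spdef, so its level there did not follow Lipf. Creb3l1, a membrane-bound factor of secretory cells, ran from 9.63 to 117 CPM and was highest in B01 and A08, without passing.

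Elf5, an ETS factor of glandular and other epithelia, showed the opposite direction to Lpo. It had 20.9, 19.8 and 27.5 CPM in the normal samples. Lowest, median and highest values were 12.9, 13.9 and 20.8 CPM in hyperplasia, 9.96, 12.7 and 20.6 in dysplasia, 6.00, 9.30 and 14.8 at the in situ stage, and 10.8, 13.0 and 14.3 in invasive carcinoma. All 12 carcinoma samples lay below every normal sample. Elf5 fell by 0.66 on the log2 scale in dysplasia (SE 0.22, adjusted p = 0.0276), by 1.16 in carcinoma in situ (0.23, 4.1e-04) and by 0.83 in invasive carcinoma (0.23, 0.0042), by the edgeR test. In hyperplasia the change was -0.53 ± 0.22 (0.0944), and it passed the threshold by limma-voom (-0.71, adjusted p = 0.0048) and in a fit of only these groups (-0.54, 0.0337). The fall in dysplasia missed the threshold without D02 (adjusted p = 0.0678), D03 (0.175) or B04 (0.0527), and the falls in both carcinoma stages held without any 1 sample. In the same stages skeletal muscle genes were lower as well: 8 of 12 list members fell in dysplasia, 8 at the in situ stage and 10 in invasive carcinoma. In each of these stages 7 of 12 squamous epithelial genes rose, and 1 fell in invasive carcinoma. Of all genes, 25.7%, 37.6% and 46.1% were called in either direction in these comparisons. The part of tissue make-up in the Elf5 values was not tested.

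Krt7, a keratin of duct and other simple epithelia, had 28.7, 18.9 and 13.8 CPM in D01, D02 and D03. Across the later stages its lowest, median and highest values were 1.31, 2.31 and 13.0 CPM in hyperplasia, 1.34, 4.15 and 23.5 in dysplasia, 1.84, 6.31 and 9.78 at the in situ stage, and 1.71, 7.46 and 11.6 in invasive carcinoma. All 8 hyperplasia samples and all 12 carcinoma samples lay below every normal sample, and dysplasia overlapped them through B05 and B01. Krt7 fell in hyperplasia by 2.46 on the log2 scale (SE 0.72, adjusted p = 0.0237 by edgeR). The change was -1.35 ± 0.75 in dysplasia (0.188), -1.76 ± 0.77 at the in situ stage (0.0739) and -1.56 ± 0.77 in invasive carcinoma (0.101). By limma-voom all 4 passed (adjusted p = 0.0013, 0.0029, 0.0215 and 0.0065). The fall in hyperplasia missed the threshold without D01 (adjusted p = 0.0832) or D02 (0.0703). Of 17 tested genes of salivary ducts, many of them tissue kallikreins, 11 fell in hyperplasia as well. In this comparison 14.3% of all genes were called in either direction. The list summed to 334, 193 and 437 CPM in D01, D02 and D03, and to 148 to 179.98 in hyperplasia. Klk1b3, Klk1b5, Klk1b16 and Klk1b22 had medians of 0 CPM over all samples, with highest values of 18.5, 7.61, 14.8 and 22.9 CPM. Klk1b9 had a median of 0.048 and a highest value of 47.3 CPM. How far the 11 falls rested on single normal samples was not examined here. Of 6 tested plasma cell genes 3 fell (Igha, Jchain and Igkc). That list summed to 70.3 CPM in D01, above every hyperplasia sample (10.2 to 17.6), but to only 13.4 and 9.98 in D02 and D03. The part of the cells behind the duct and plasma cell genes in the Krt7 result was not tested.

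Krt18, the partner of Krt8 in simple epithelia, had 50.7, 6.64 and 4.57 CPM in normal samples, medians of 3.52, 13.6, 16.5 and 13.9 CPM in the later stages, and peaks of 78.3 (A08), 103 (B01), 31.2 (C04) and 75.8 (C12). It followed the other members with a correlation of 0.95 and did not pass in any comparison, nor did Krt8 or Cldn10. Prom2, a membrane protein of epithelial protrusions, had 187, 153 and 184 CPM in normal samples. Its lowest, median and highest values were 163, 173 and 219 CPM in hyperplasia, 153, 205 and 229 in dysplasia, 136, 160.2 and 181 at the in situ stage, and 133, 159.5 and 183 in invasive carcinoma. Prom2 fell in invasive carcinoma against hyperplasia by 0.23 on the log2 scale (SE 0.09, adjusted p = 0.0446 by edgeR). The ranges overlapped, with 4 of 6 invasive samples (C05, C06, C09 and C12) below all hyperplasia samples, and the call was lost without any of 9 single samples (A01, A03, A04, A06, A07, C06, C08, C09 and C12; adjusted p 0.0642 to 0.156).

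**Figure D5:**
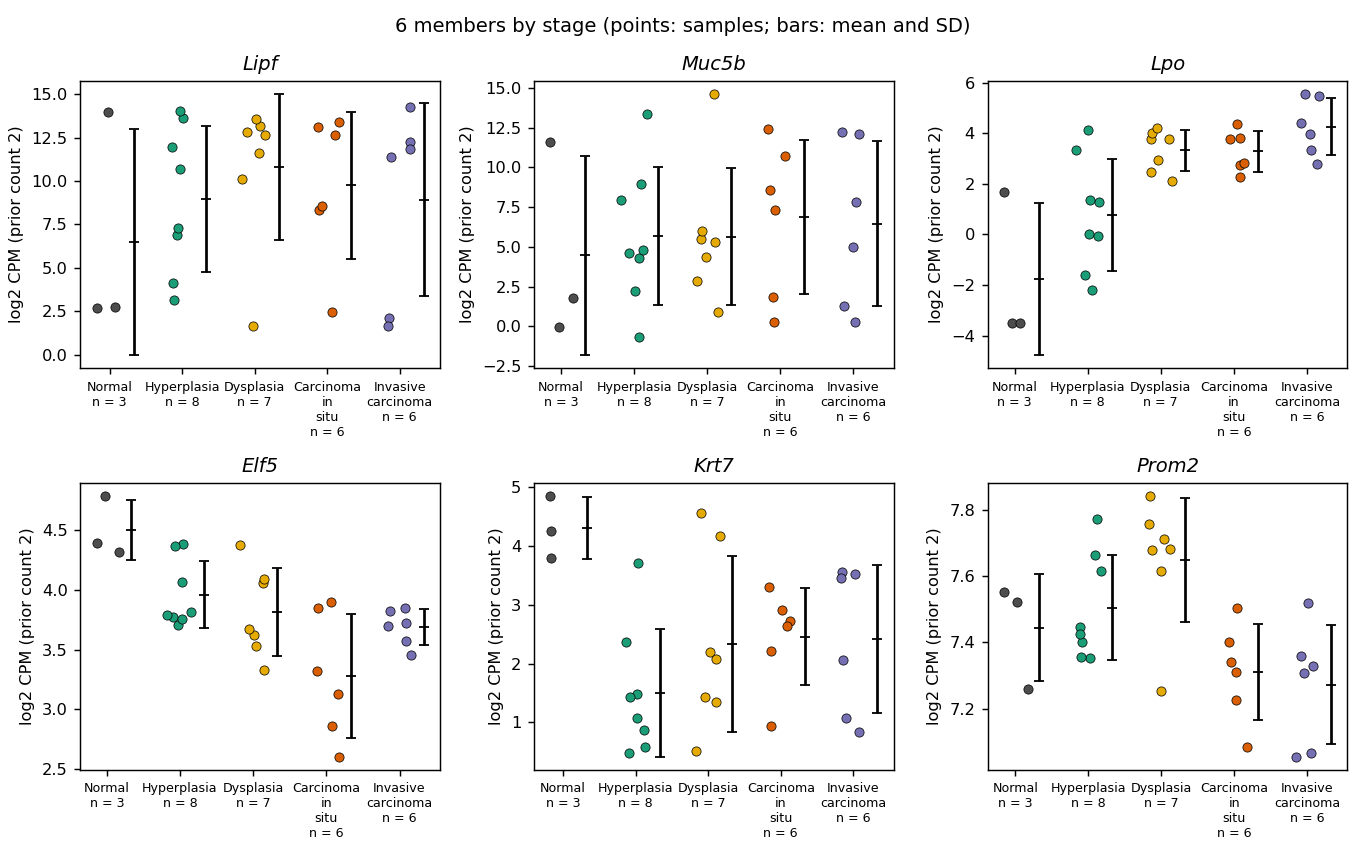
Log2 CPM (prior count 2, y axis) of 6 members in each of the 5 stages (x axis), with 1 point per sample and bars for the mean and SD (n = 3, 8, 7, 6 and 6). Lipf and Muc5b span almost the whole axis in every stage, Lpo is lowest in normal and highest in invasive carcinoma, Elf5 is lower in both carcinoma stages than in normal tissue, Krt7 is lower in hyperplasia than in normal tissue, and Prom2 covers a narrow axis.

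Counted over the set, the members were called less often than genes at large, with no test of that difference. In hyperplasia against normal 1 of 34 members passed (2.94%; Krt7, lower), where 14.3% of all genes did. Dysplasia had 2 (5.88%; Lpo higher, Elf5 lower), with 25.7% of all genes called. Carcinoma in situ had 3 (8.82%; Lpo and Pip higher, Elf5 lower), with 37.6% of all genes called. In invasive carcinoma 2 passed (Lpo higher, Elf5 lower) beside 46.1% of all genes, and against hyperplasia 2 passed (Lpo higher, Prom2 lower) beside 38.4%. Between the carcinoma stages 0 of 34 members passed and 0% of all genes by edgeR, with 0 members and 1259 genes at an unadjusted p under 0.05, and 0 members by DESeq2 or limma-voom. The 4 comparisons with normal share the same 3 normal samples.

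The errors of most members were large. The median SE of the log2 change over the 34 members was 1.88 to 1.91 against normal, where it was 0.165 to 0.172 over all genes. The median fitted change of the members was -0.01 in hyperplasia, 0.55 in dysplasia, 0.08 at the in situ stage and 0.31 in invasive carcinoma against normal, with 0.01 to 0.02 over all genes, and 0.28 in invasive carcinoma against hyperplasia. These medians depended on D01, the 1 normal sample rich in secretory RNA. Without D01 they were 6.61, 6.84, 6.62 and 6.85, and still only 1, 2, 2 and 2 members passed (Lpo in all 4 comparisons, Elf5 in the last 3). Without B01, Bpifb2 and Tff2 passed as lower in dysplasia against normal (log2 changes -7.75 and -7.84, adjusted p = 0.0456 and 0.0458 by edgeR). Without A08, Spdef, Krt8 and Krt7 passed as higher in invasive carcinoma against hyperplasia (2.398, 2.97 and 1.54, adjusted p = 0.0304, 0.0306 and 0.0468).

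The genes outside the set with the most similar pattern were found by the Pearson correlation, over the 30 stage-centred samples, with the mean of the 22 secreted members. Predicted and unnamed genes, Rik clones, pseudogenes, antigen receptor segments and genes with a mean under 1 CPM were left out of this ranking. The 15 highest of the rest began with B4galnt2 (0.99), Tmc5 (0.98), Slc44a4 (0.98), Mlph (0.96), Lrrc26 (0.96), Azgp1 (0.96) and Pax1 (0.96). Next were Aass (0.95), Ccl28 (0.95), Cldn3 (0.95), Prpmp5 (0.94), Pglyrp1 (0.94), Prom1 (0.94), Msln (0.94) and Gcnt3 (0.94). B4galnt2 adds N-acetylgalactosamine to glycans, Lrrc26 is a subunit of potassium channels in secretory cells, Ccl28 is a mucosal chemokine of glands, and Pglyrp1 is an antibacterial peptidoglycan-binding protein. B4galnt2 ran from 0 to 104 CPM between samples. None of the 15 was called in any of the 6 comparisons. Of 17604 tested genes outside the set, 160 had a correlation over 0.8 and 43 over 0.9, and the median was -0.03.

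Further saliva proteins with enough counts to be tested mostly varied with the members. Of 20 listed, 19 had a row and 9 were tested. Of those 9, 7 correlated with the secreted members at over 0.8. They were led in level by Wfdc18, the proline-rich proteins Prb1 and Prpmp5, and Bpifb6 (mean 172, 133, 31.9 and 4.12 CPM). Bpifa1, also tested, correlated at 0.13. Among the untested genes, Dnase1, Prol1, Prh1, Bpifb9a, Bpifb9b, Zg16, Cst10 and Scgb2b26 reached at most 0.0874 CPM in any sample. Mucl2 had a median of 0 CPM and a highest value of 62.3. Only Scgb2b27 passed, higher in invasive carcinoma against normal (log2 change 2.77 ± 0.92, adjusted p = 0.0153 by edgeR) and against hyperplasia, with a correlation of 0.11. Its level was low, with a median of 0.22 CPM and a highest value of 1.61. Of 7 lipocalins and odorant-binding proteins listed for von Ebner glands, 5 had a row (Lcn3, Lcn4, Lcn11, Obp2a and Obp2b), their sum reached at most 0.265 CPM in any sample, and 0 were tested. The tissue's own markers were abundant throughout: squamous epithelial genes summed to 43576 to 88216 CPM and skeletal muscle genes to 14028 to 63450 CPM over all samples. Those lists had median correlations with the secreted members of -0.12 and -0.17.

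Among 13 tested genes of mucin glycosylation, led by Galnt6, C1galt1, Galnt7 and Fut2, the median correlation with the secreted members was 0.75 and 4 exceeded 0.8 (Fcgbp, Gcnt1, Ern2 and Gcnt3). Against normal, Fut2 rose in dysplasia, Galnt6 rose in invasive carcinoma, and the sialyltransferase St6galnac1 fell in dysplasia and both carcinoma stages, by 2.02 ± 0.42 on the log2 scale in the last (adjusted p = 3.6e-04 by edgeR). St6galnac1 was low throughout, with a median of 0.44 CPM and a highest value of 1.35. C1galt1c1 rose against hyperplasia. Of 24 genes for the entry, folding and export of secreted proteins, led by Hspa5, Xbp1, Pdia6 and Rrbp1, 1, 9, 12 and 14 rose against normal from hyperplasia to invasive carcinoma and 0 fell, beside 14.3%, 25.7%, 37.6% and 46.1% of all genes called in either direction. Hspa5, the chaperone BiP, rose by 0.85 ± 0.18 in invasive carcinoma (adjusted p = 4.3e-04 by edgeR) with a correlation of 0.02 with the secreted members. Rrbp1, which lets ribosomes bind the membrane, correlated at 0.73 and was not called.

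Of 17 genes of fluid secretion and its receptors, Lrrc26 (0.96), the potassium channel Kcnn4 (0.92) and the muscarinic receptors Chrm3 (0.90) and Chrm1 (0.86) followed the secreted members, and none of these 4 was called. Against normal, 2, 3, 7 and 8 of the 17 were called in either direction from hyperplasia to invasive carcinoma, where 14.3%, 25.7%, 37.6% and 46.1% of all genes were. Of these, the chloride-bicarbonate exchanger Slc4a2 and the calcium release channel Itpr2 were among those that rose in both carcinoma stages, while Stim1, Slc4a4, Atp1b1 and Fxyd2 fell in both, and the adrenergic receptor Adra1a fell in invasive carcinoma. Among factors of gland lineages, Etv1 (0.86) followed the members and was not called. Elf3, Ehf and Sox9 rose in invasive carcinoma, and Tfcp2l1, Foxc1 and Nkx2-3 fell. Of the 17 tested duct genes, 11, 7, 10 and 11 fell against normal and none correlated with the secreted members at over 0.8. These counts share the same normal samples, whose sums for the duct list differed as given above. Of 7 myoepithelial genes, led by Acta2, Myh11, Tagln and Mylk, 0 passed in any comparison, and Cnn1 alone correlated at over 0.8 (0.82).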

How the data were processed

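Gene-level raw counts for 30 mouse samples came as a single table deposited by the authors, with whole numbers whose totals differ between samples. The library kit was stranded and selected mRNA, per the labels. The submitters' processing notes name cutadapt 2.4, STAR 2.7.2a and GRCm38. The counting tool, whether it used strand, and its gene models are not given in the sources used here. Identifiers were matched to GENCODE M21 (99.53% of 55487). No column was left out, and no 2 columns were identical.

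The members, the gene lists and the comparisons were chosen with earlier results of these data known. edgeR 4.0.16 in R 4.3.3 was fitted to all 30 samples with 1 mean per stage, TMM factors, its default expression filter (17638 genes) and a robust quasi-likelihood test, two-sided, with Benjamini-Hochberg adjustment over all genes. Called means an adjusted p under 0.05. The script was tested on simulated data. Log2 CPM carries a prior count of 2, and CPM per kb uses merged exon lengths. Named genes are all members (16 and every called one with values by sample) and the 15 most similar genes after the exclusions given above. Of each list they are the 4 with the highest mean CPM, the called genes and some others. Called genes are only counted in the longer lists. Results were recomputed with DESeq2 1.42.0, limma-voom (limma 3.58.1) weighting samples by quality, other scaling (RLE, upper quartile), no filter, fits restricted to the 2 groups, a replicate block, an adjusted p under 0.01, a prior count of 0.5, Spearman correlation, and leaving out each sample in turn. Promoters are from RefSeq. Protein features, though planned, were not computed. Some genes of these lists are not reported here.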

Additional observations from a re-analysis of the deposited data

Results flagged for a closer look

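Within the stages of 6 to 8 samples, the highest or lowest sample of a member was set against the rest by its gap on the log2 CPM scale (Dixon's 95% limit). Of 136 such groups 25 were marked, and chance marks about 1 in 20. The members share their pattern, so the marks are not independent.

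Dysplasia sample B01 stood above the rest of its stage in 11 members. These were Muc5b at 24990 CPM, Muc19 at 298, Tff2 at 2180, Smgc at 98.3, Gp2 at 2882, Agr2 at 597, Bpifb2 at 4119, Slc12a2 at 232, Ano1 at 53.4, Spdef at 99.5 and Creb3l1 at 117. In Prom2 the same sample was the lowest, at 153 CPM. Hyperplasia sample A08 was high in Slc12a2 at 209 CPM, Ano1 at 47.7 and Creb3l1 at 68.1.

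Dysplasia sample B06 stood below the rest of its stage in 9 members, all but Ltf from the linkage group that held Lipf. These were Bpifb1 at 2.13 CPM, Bpifa2 at 0.118, Ltf at 0.237, Dmbt1 at 0.316, Lipf at 3.04, Amy1 at 15.4, Car6 at 0.0395, Sbpl at 1.30 and 2310057J18Rik at 0.276. Carcinoma in situ sample C11 was low in Krt8 at 0.501 CPM.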

How the results depend on the processing

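The median correlation of a member with the mean of the others was 0.92 in every alternative tried (0.915 to 0.918) and 0.907 to 0.922 when each sample was left out. The count of members called was small throughout and moved with the setting. With each sample left out in turn it ran from 0 to 1 in hyperplasia against normal, 0 to 4 in dysplasia, 1 to 3 in carcinoma in situ and 2 to 2 in invasive carcinoma, and from 1 to 5 in invasive carcinoma against hyperplasia. In hyperplasia against normal it was 2 by limma-voom and 2 in a fit of only the 2 groups, and 0 at an adjusted p under 0.01. In dysplasia it was 1 with no expression filter, 1 with only the 2 groups and 0 at 0.01; in carcinoma in situ 1 with no filter and 1 at 0.01; in invasive carcinoma 4 by limma-voom. Against hyperplasia it was 1 with RLE factors, 1 with no filter, 1 with only the 2 groups and 0 at 0.01. Against normal, the alternatives gave 0 to 2 in hyperplasia, 0 to 3 in dysplasia and 1 to 4 in both carcinoma stages. The 3 in dysplasia were by limma-voom and the 4 at the in situ stage by DESeq2. Invasive carcinoma against hyperplasia gave 0 to 3, with 3 by DESeq2 and 3 by limma-voom. Over all settings 11 members were called at least once and 23 never. Elf5 stayed under 0.05 in both carcinoma stages in every alternative (highest adjusted p 0.0126 and 0.0496). Lpo in invasive carcinoma did so in all but the replicate block (0.0805 against normal, 0.0756 against hyperplasia). With a replicate block made from the code numbers, the count called was 0 in hyperplasia, 1 in dysplasia and 1 in invasive carcinoma against normal, and 0 against hyperplasia. The shared numbers did not pair the samples: 11 of 31 same-number pairs had a correlation of deviations over 0.1 (range -0.56 to 0.51), and 3 of 26 samples correlated best with their own number. No alternative turned the direction of a change called in the main fit. Bpifb2 and Tff2, called lower in dysplasia only without B01, had log2 changes of 10.2 and 9.79 without D01. With 3 normal samples, 1 of them rich in secretory RNA, the depth was not the limit for abundant members. Pip and Smgc, however, had 3 or fewer counts in 23 and 18 of 30 samples. Over all genes, the count called moved by more than 1.5 times with the replicate block in invasive carcinoma (3759 in place of 8127 against normal, 1684 in place of 6768 against hyperplasia). It did so by limma-voom in hyperplasia (4645 in place of 2519) and dysplasia (6865 in place of 4540), and at 0.01 in hyperplasia (987), dysplasia (2004), carcinoma in situ (3972 in place of 6630) and invasive carcinoma against hyperplasia (4009).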

Other observations

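Markers of stomach, airway and mammary tissue, which express some of the same genes, were low or did not follow the members. Adipose genes followed them in part. Of 8 stomach genes, which share Tff and mucin types with the gland, the sum reached at most 3.70 CPM in any sample; 3 were tested, and the mucin Muc5ac followed the secreted members at a correlation of 0.90 with a mean of 0.40 CPM. Gkn3 fell in carcinoma in situ against normal. Of 6 airway genes 2 were tested, Scgb1a1 and Cyp2f2, and both fell in hyperplasia and in both carcinoma stages; Cyp2f2 had a mean of 102 CPM and a correlation of 0.28. Of 6 mammary genes, which share Pip, Elf5 and Krt7 type markers, 2 were tested. The casein Csn1s1 rose in dysplasia and both carcinoma stages, and the list summed to at most 0.759 CPM in normal samples and 76.0 in invasive carcinoma, with a correlation of -0.09 between Csn1s1 and the secreted members. Of 5 adipose genes Fabp4 alone passed, lower in dysplasia and both carcinoma stages, and the serine protease Cfd correlated at 0.73 with the secreted members. Cidec, Adipoq and Plin1 correlated at 0.58, 0.52 and 0.41, with means of 1.31, 1.28 and 0.97 CPM, and Fabp4 at -0.14.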
